A study of Mus musculus with 6 samples.

Results

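The genes described here encode proteins that add acyl groups to histone lysines, remove them or bind them, measured in the livers of SCADD and WT mice. They are 41 genes taken by symbol from the 55487 genes of the count tables. They comprise 15 writers (acetyltransferases and subunits of the MSL and NSL complexes), 16 erasers (histone deacetylases and sirtuins), 8 readers, and the chromodomain protein genes Cdyl and Cdyl2. The libraries came from polyadenylated RNA of frozen liver pieces of 6 male mice aged 8 weeks on standard chow. The 3 SCADD mice were of the substrain BALB_cByJ, which lacks short-chain acyl-CoA dehydrogenase activity, and the 3 WT mice were of BALB_cJ. Genotype and substrain coincided in all 6 animals and cannot be told apart.

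Acyl groups such as acetyl, propionyl, butyryl and crotonyl are placed on histone lysines by acetyltransferases that draw on the matching acyl-CoA. Zinc-dependent deacetylases and NAD-dependent sirtuins take them off, and bromodomain, YEATS and double PHD finger proteins bind them. Short-chain acyl-CoA dehydrogenase oxidises butyryl-CoA in mitochondria, and the title of the series links its deficiency to acylation of lysine in the tail of histone H4. Kat8 (MOF) is an acetyltransferase of the histone H4 tail and works in the MSL and NSL complexes. The question addressed here is whether the transcripts of this machinery differed between SCADD and WT livers.

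Gene counts totalled 16948986 to 23912744 reads in the SCADD libraries and 23991104 to 27148756 reads in the WT libraries, and unmapped reads made up 25.1% to 36.6% in SCADD and 13.6% to 16.4% in WT. SCADD replicate 3 had the fewest gene counts and the most unmapped reads, and the lowest TPM of the 6 libraries for 34 of the 41 genes. The share of all genes with their lowest TPM in that library was not computed. In read counts scaled to library size it was lowest for fewer of the 41. Without it all tested genes gave 909 higher and 681 lower in SCADD, against 569 and 378 with it, and Kansl2 alone of the 41 was called. Acads, which encodes short-chain acyl-CoA dehydrogenase, averaged 100 ± 3.78 CPM (read counts scaled to library size) in SCADD and 182 ± 15.2 CPM in WT (SD, n = 3 each). The log2 fold change was -0.86, with an edgeR quasi-likelihood adjusted p of 0.00407. Of 9 hepatocyte markers 9 were tested and 0 differed, with a summed level of 109301 to 144158 CPM in SCADD and 112054 to 163440 CPM in WT. The 8 sinusoidal endothelial markers summed to 156 to 241 CPM in SCADD and 244 to 278 CPM in WT, and Lyve1 among them was lower. The 5 cholangiocyte markers summed to 28.8 to 41.1 CPM in SCADD and 44.7 to 52.1 CPM in WT, with 0 of 3 tested called. For 7 Kupffer cell markers the sums were 158 to 272 CPM in SCADD and 196 to 269 CPM in WT, and for 7 stellate cell markers 271 to 523 CPM in SCADD and 340 to 474 CPM in WT. The 5 red cell markers summed to 430 to 1456.5 CPM in SCADD and 555 to 722 CPM in WT, and Alas2 among them was higher. Lymphocyte and neutrophil markers summed to under 10 CPM in every library, and no marker of any list was at 0 in all libraries. The part of these shifts in the results below was not tested. In bulk tissue, fewer cells of a type and less RNA per cell cannot be told apart.

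A pair of promoters is printed because the first belongs to an acetyltransferase of the histone H4 tail and the second to the gene that came nearest to the threshold. Both are RefSeq windows of 300 bases on GRCm38.p6, with 250 bases before the start and 50 after it, written 5′ to 3′ on the strand of the gene. Capitals mark the motifs searched on either strand, namely the CCAAT box, the GC box GGGCGG, the Ets-type motif CCGGAAG and the AP-1 motif TGANTCA. None of the 4 contains another. The Kat8 window lies at chr7:127912267-127912566 on the plus strand, and the Kansl2 window at chr15:98534220-98534519 on the minus strand.
Kat8: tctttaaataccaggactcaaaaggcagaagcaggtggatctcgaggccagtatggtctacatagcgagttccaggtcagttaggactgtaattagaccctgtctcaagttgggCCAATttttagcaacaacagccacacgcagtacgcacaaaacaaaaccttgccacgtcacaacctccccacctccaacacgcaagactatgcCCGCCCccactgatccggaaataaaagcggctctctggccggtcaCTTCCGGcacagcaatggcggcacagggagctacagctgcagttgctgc
Kansl2: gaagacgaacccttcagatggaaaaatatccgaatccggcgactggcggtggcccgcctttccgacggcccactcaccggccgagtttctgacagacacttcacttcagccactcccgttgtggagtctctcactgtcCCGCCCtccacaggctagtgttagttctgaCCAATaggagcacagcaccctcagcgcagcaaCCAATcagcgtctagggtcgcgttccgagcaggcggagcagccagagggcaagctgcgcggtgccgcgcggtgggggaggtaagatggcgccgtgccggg
The Kat8 window held 1 CCAAT, 1 GC box and 1 Ets-type motif at 53% G and C. The Kansl2 window held 2 CCAAT boxes and 1 GC box at 62.7% G and C. A window was found for 37 of the 41 genes (the others are Cdyl2, Hdac1, Hdac3 and Kat6a). Their median was 62% G and C with an observed to expected CpG ratio of 0.815, against 52.7% and 0.389 over all 27025 windows in the table. CCAAT occurred in 19 of 37 windows (51.4%, against 38.0% of all windows) and the GC box in 24 (64.9%, against 35.9%). The Ets-type motif occurred in 9 (24.3%, against 9.14%) and the AP-1 motif in 2 (5.41%, against 7.92%). Windows of tested genes, found for 9741 of 13498, lay nearer to these values than all windows did, with 60.7% G and C, a CpG ratio of 0.758, CCAAT in 38.9%, the GC box in 62.6%, the Ets-type motif in 18.5% and the AP-1 motif in 5.09%. Those shares describe only the tested genes with a window. The matches describe letters and were not tested.

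Of the 41 genes, 40 had enough reads to be tested, and none differed between SCADD and WT livers at an adjusted p under 0.05. Over all 13498 tested genes 7.02% did, 569 higher and 378 lower in SCADD. DESeq2 and limma-voom also called 0 of the 40. At an unadjusted p under 0.05 edgeR had 6 of the 40 genes (15%, against 22.7% of all tested genes), DESeq2 3 and limma-voom 6. Kansl2, Msl1 and Mllt3 were on the higher side in SCADD and Hdac1, Kat5 and Sirt7 on the lower side. In CPM the values of the SCADD and WT libraries did not overlap for 9 of the 40 genes (22.5%), against 28.0% of all tested genes. The 9 were these 6 with Crebbp, Hdac3 and Taf1. In RSEM TPM only Crebbp and Kansl2 of these 9 stayed without overlap. The share of all tested genes without overlap in TPM was not computed.

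The fold changes lay between -0.49 for Hdac1 and 0.49 for Mllt3 on the log2 scale, with a median of 0.04, against -0.00078 over all tested genes. The median size of the log2 fold change was 0.17, against 0.24 over all tested genes, and the median standard error was 0.16, against 0.19. The 95% interval of the fold change stayed within 1.5-fold in either direction for 24 of the 40 genes (60%), against 34.5% of all tested genes. For the remaining 16 genes a 1.5-fold difference lay inside the interval. The estimate was above 0 for 27 genes and below 0 for 13, a split that became 19 and 21 with upper-quartile scaling and 20 and 20 without SCADD replicate 2. The sign changed in at least 1 alternative for 14 of the 40 genes.

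**Figure D1:**
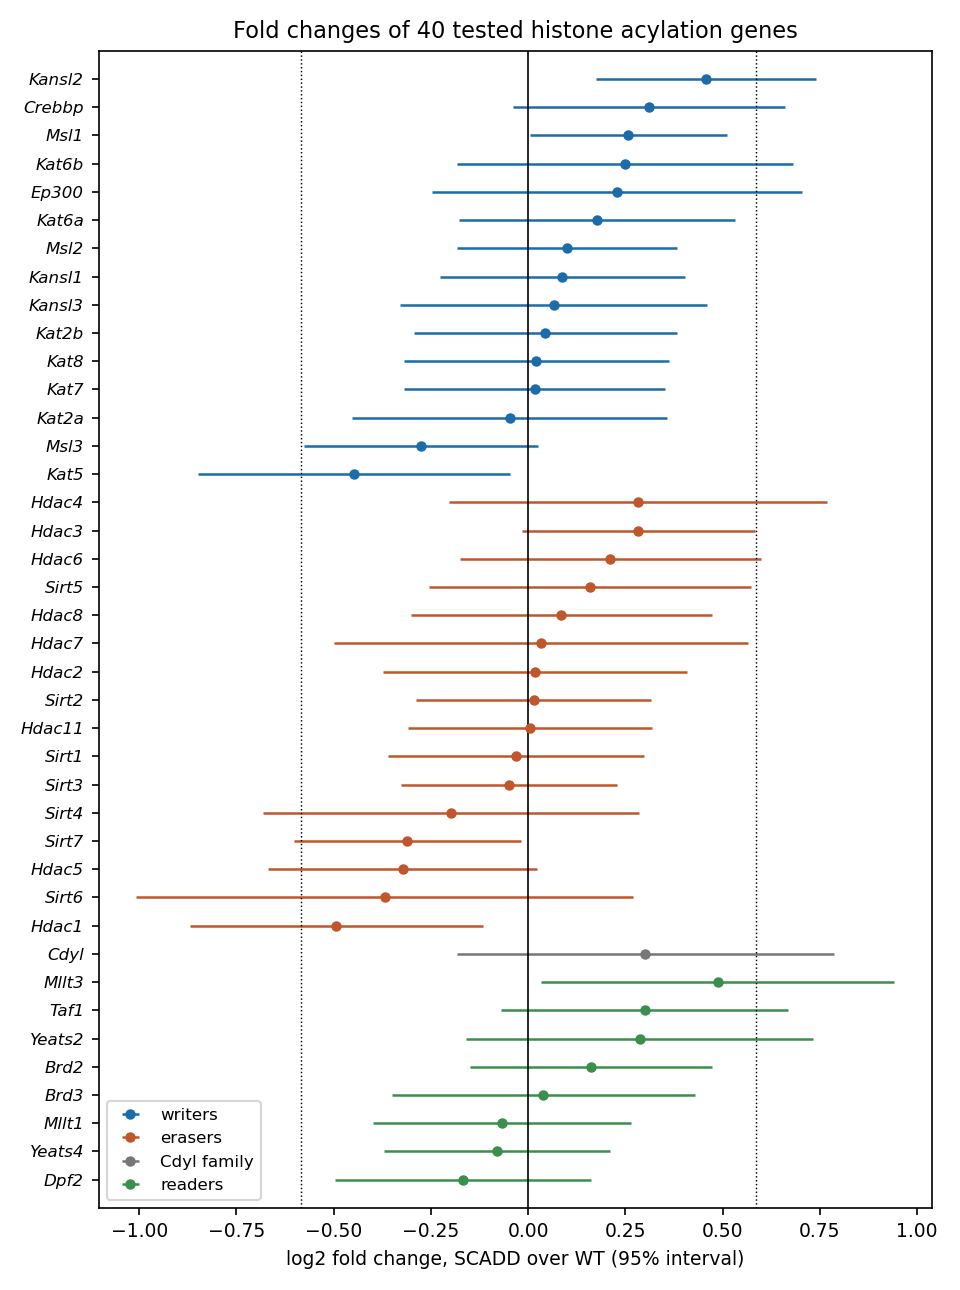
Log2 fold change, SCADD over WT, of the 40 tested genes with its 95% interval, ordered within writers, erasers, the Cdyl family and readers. Dotted lines mark 1.5-fold in either direction, and the points run from -0.49 for Hdac1 to 0.49 for Mllt3, with 24 intervals inside the dotted lines.

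Among the writers, Kat8, the acetyltransferase of the MSL and NSL complexes, had 15.1, 16.3 and 13.5 CPM in SCADD livers, against 12.2, 16.6 and 15.5 CPM in WT livers. The libraries of both groups were interleaved. Its log2 fold change was 0.02 (SE 0.15, adjusted p = 0.958), and the interval ran from 0.801-fold to 1.29-fold. Changes of Kat8 mRNA inside these bounds cannot be told from none.

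The subunits of the NSL complex hold Kat8 at gene promoters. Kansl2 had 15.7, 15.1 and 15.3 CPM in SCADD livers, against 11.9, 10.8 and 10.9 CPM in WT livers. All 3 SCADD libraries lay above all 3 WT libraries, and the spread within each group was small. The log2 fold change was 0.46 (SE 0.13, interval 0.18 to 0.74), or 1.37-fold, with an unadjusted p of 0.0045 and an adjusted p of 0.0574 in edgeR's quasi-likelihood test. It was the lowest adjusted p of the 40 genes. Kansl2 passed the threshold in 2 of 17 alternative settings, with RSEM expected counts (log2 fold change 0.53, adjusted p = 0.0291) and without SCADD replicate 3 (0.46, adjusted p = 0.0471), and over all 17 its adjusted p ranged from 0.0291 to 1, the highest in the test against a 1.5-fold change. Exons of Kansl2 overlap the snoRNA gene Snora2b on the same strand, so some reads of that stretch could not be assigned to a single gene. Kansl1 and Kansl3, the scaffold and another subunit of the complex, had log2 fold changes of 0.09 and 0.07 with overlapping groups.

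In the MSL complex, which directs Kat8 to the histone H4 tail, Msl1, the scaffold, had 27.8, 27.8 and 27.5 CPM in SCADD livers, against 23.9, 22.6 and 23.0 CPM in WT livers. The groups did not overlap, and the log2 fold change was 0.26 (SE 0.12, adjusted p = 0.214). Exons of Msl1 overlap those of Casc3 on the same strand, so some reads of that stretch could not be assigned to 1 gene. Msl3, the chromodomain subunit, averaged 31.2 ± 3.65 CPM in SCADD and 37.8 ± 3.38 CPM in WT (log2 fold change -0.28, adjusted p = 0.261). Msl2, the ubiquitin ligase subunit, had a log2 fold change of 0.10. The ratio of Msl1 to Msl3 counts was 0.800, 1.01 and 0.877 in SCADD, against 0.706, 0.577 and 0.570 in WT, without overlap. This ratio follows from the values of Msl1 and Msl3 above, was not set against the ratios of other gene pairs over all genes, and was not tested.

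Kat5 (TIP60), the acetyltransferase of the NuA4 complex, had 6.08, 8.26 and 5.58 CPM in SCADD livers, against 8.28, 9.01 and 9.95 CPM in WT livers. The highest SCADD library and the lowest WT library almost met. The log2 fold change was -0.45 (SE 0.18, interval -0.85 to -0.05), with an unadjusted p of 0.0321 and an adjusted p of 0.173. Leaving out 1 library moved the estimate between -0.64 (without SCADD replicate 2) and -0.34 (without SCADD replicate 3). Kat5 overlaps exons of Rnaseh2c on the opposite strand. Reads on the strand opposite to Kat5 made up 7.45%, 9.79% and 10.9% of its stranded reads in SCADD, against 3.38%, 4.19% and 4.33% in WT. With unstranded counts the log2 fold change was -0.43 and the adjusted p 0.224. The remaining MYST acetyltransferases Kat7, Kat6a and Kat6b had log2 fold changes of 0.02 to 0.25, with overlapping groups.

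Ep300 and Crebbp encode p300 and CBP, coactivator acetyltransferases with a broad range of acyl substrates. Crebbp had 7.59, 7.22 and 9.18 CPM in SCADD livers, against 6.55, 6.47 and 6.27 CPM in WT livers, which did not overlap (log2 fold change 0.31, SE 0.16, adjusted p = 0.280). Ep300 averaged 9.65 ± 2.97 CPM in SCADD and 8.28 ± 0.643 CPM in WT, with its highest level in SCADD replicate 1 and its lowest in SCADD replicate 3. Its log2 fold change of 0.23 became 0.45 without SCADD replicate 3 and -6.8e-05 without SCADD replicate 1. Its size thus depended on each of these libraries, which moved it in opposite directions. In the GCN5 and PCAF pair, Kat2b (PCAF) was by far the more abundant. Kat2b had 97.0, 99.9 and 83.7 CPM in SCADD livers, against 93.6, 103.7 and 74.9 CPM in WT livers. Its log2 fold change was 0.04 (SE 0.15, adjusted p = 0.906) and that of Kat2a -0.05. Among all 15 writers the median log2 fold change was 0.09, with 12 estimates above 0 and 3 below. There were 10 intervals within 1.5-fold (34.5% of all tested genes) and 4 genes without overlap (28.0% of all tested genes).

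**Figure D2:**
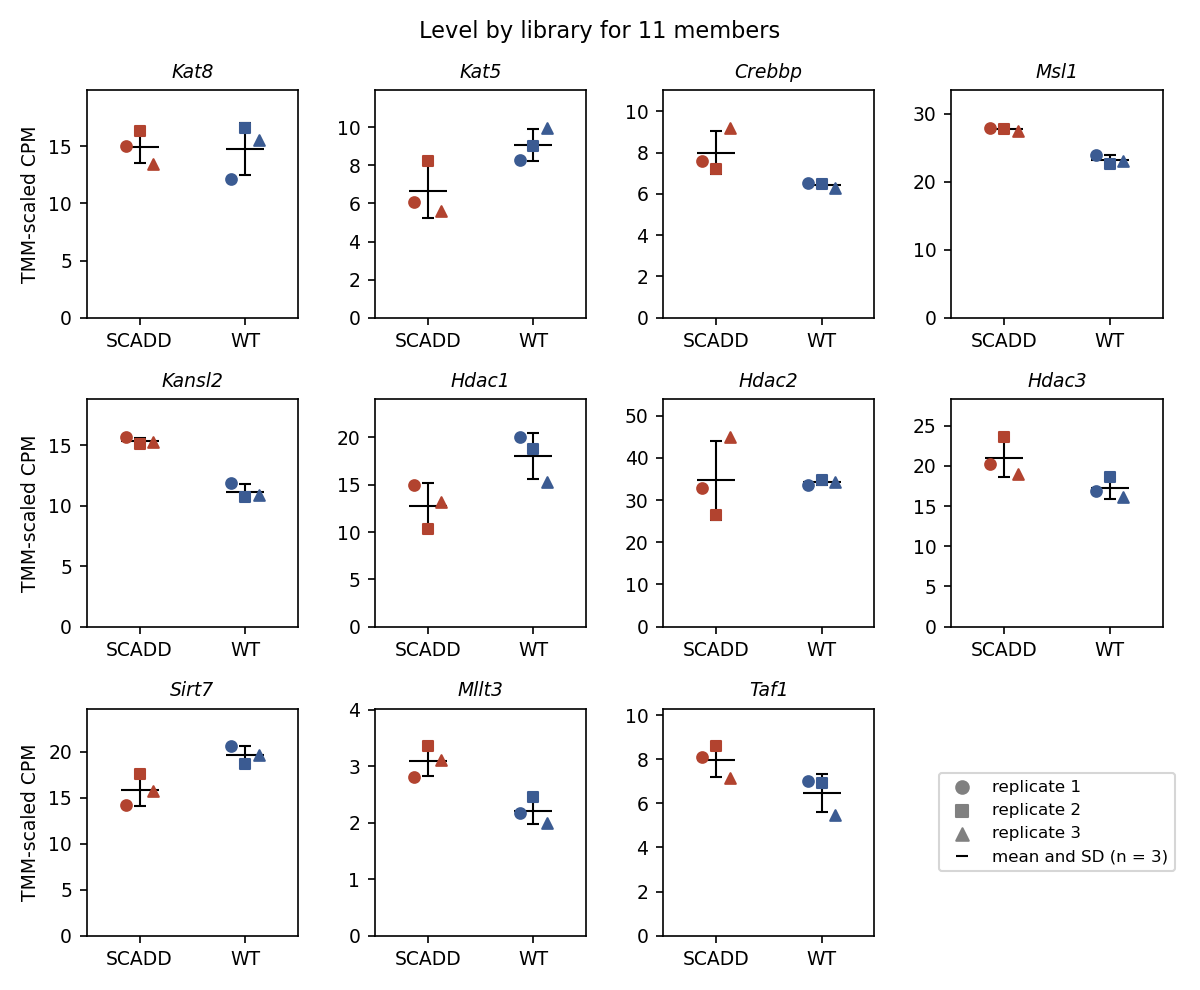
TMM-scaled CPM of 11 genes in each library, SCADD left of WT, with the mean and SD of 3 animals as bars. Crebbp, Msl1, Kansl2, Hdac3, Mllt3 and Taf1 lay higher in all SCADD libraries, Kat5, Hdac1 and Sirt7 lay lower, and Kat8 and Hdac2 overlapped.

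Among the erasers, Hdac1, Hdac2, Hdac3 and Hdac8 encode the class I deacetylases, and Hdac1 and Hdac2 are close paralogs in the Sin3, NuRD and CoREST complexes. Reads that map to more than 1 place were left out of the counts. Hdac1 had 15.0, 10.3 and 13.2 CPM in SCADD livers, against 20.0, 18.8 and 15.3 CPM in WT livers. The groups did not overlap, although the highest SCADD library and the lowest WT library differed by little. The log2 fold change was -0.49 (SE 0.17, interval -0.87 to -0.12), or 0.711-fold, with an unadjusted p of 0.015 and an adjusted p of 0.113. Hdac1 passed the threshold in 1 of 17 alternatives, without a filter on low counts (adjusted p = 0.0490), and its highest adjusted p over these alternatives was 1.

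Hdac2 had 32.9, 26.4 and 44.9 CPM in SCADD livers, against 33.5, 34.8 and 34.3 CPM in WT livers. The SCADD libraries spread to both sides of the tightly grouped WT libraries, with a log2 fold change of 0.02 (adjusted p = 0.970, SE 0.18). The ratio of Hdac1 to Hdac2 counts was 0.455, 0.389 and 0.293 in SCADD, against 0.597, 0.540 and 0.445 in WT. Here SCADD replicate 1 lay just above WT replicate 3, and the groups overlapped.

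Hdac3, the catalytic subunit of the NCoR and SMRT corepressor complexes, acts on metabolic genes in liver. It had 20.2, 23.5 and 19.0 CPM in SCADD livers, against 16.9, 18.7 and 16.1 CPM in WT livers. All SCADD libraries lay above all WT libraries, with a log2 fold change of 0.28 (SE 0.14, interval -0.02 to 0.58, adjusted p = 0.246). Hdac1 and Hdac3 therefore had estimates of opposite sign, and neither passed the threshold.

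Hdac11, the class IV deacetylase that also removes long fatty acyl groups, was the most abundant deacetylase transcript of the zinc-dependent families. It had 64.2, 86.8 and 72.2 CPM in SCADD livers, against 73.8, 70.7 and 77.8 CPM in WT livers, with a log2 fold change of 0.01 (adjusted p = 0.988, SE 0.14). The class IIa genes Hdac4, Hdac5 and Hdac7, which act mostly as scaffolds, had log2 fold changes of -0.32 (Hdac5) to 0.28 (Hdac4), and the cytoplasmic tubulin deacetylase Hdac6 had 0.21. All 4 overlapped between groups. Hdac8, the class I enzyme that deacetylates cohesin, had 0.09, also with overlap.

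The 7 sirtuins gave estimates of -0.37 (Sirt6) to 0.16 (Sirt5). Sirt3, the main mitochondrial protein deacetylase, had 106, 113 and 116 CPM in SCADD livers, against 118, 109 and 119 CPM in WT livers. The groups overlapped, and the log2 fold change was -0.05 (SE 0.13, interval -0.33 to 0.23, adjusted p = 0.864). Sirt7, a nucleolar and chromatin deacylase, had 14.2, 17.6 and 15.7 CPM in SCADD livers, against 20.6, 18.6 and 19.6 CPM in WT livers. Its groups did not overlap, with a log2 fold change of -0.31 (SE 0.13, interval -0.60 to -0.02, adjusted p = 0.195). Exons of Sirt7 and Mafg overlap on the same strand. Sirt5, the mitochondrial desuccinylase, had 0.16 (SE 0.19), and Sirt4, which lies 358.7 kb from Acads on chromosome 5, had -0.20 (SE 0.22, adjusted p = 0.647). Sirt1 and Sirt2, the nuclear and cytoplasmic deacetylases, had -0.03 and 0.01. Over the 16 erasers the median log2 fold change was 0.01, with 9 estimates above 0 and 7 below. Intervals within 1.5-fold numbered 9 (34.5% of all tested genes) and genes without overlap 3 (28.0% of all tested genes).

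Among the readers, Mllt3 (AF9) and Mllt1 (ENL) encode YEATS proteins that bind acetylated and crotonylated lysine in complexes of transcription elongation. Mllt3 had 2.81, 3.35 and 3.10 CPM in SCADD livers, against 2.17, 2.45 and 1.99 CPM in WT livers. The groups did not overlap, and the log2 fold change was 0.49 (SE 0.21, interval 0.03 to 0.94, adjusted p = 0.188). The TPM of Mllt3 did not show the same order, with 1.73, 1.07 and 1 in SCADD and 1.31, 1.65 and 1.09 in WT. Its RSEM transcript length varied from 1360 to 3154 bases between libraries. Mllt1 had a log2 fold change of -0.07, and the ratio of Mllt3 to Mllt1 counts was 0.330 ± 0.0463 in SCADD and 0.222 ± 0.0222 in WT.

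Taf1, the double bromodomain subunit of TFIID, had 8.12, 8.59 and 7.13 CPM in SCADD livers, against 7.02, 6.91 and 5.48 CPM in WT livers, which narrowly failed to overlap (log2 fold change 0.30, SE 0.17, adjusted p = 0.327). Brd2, a BET bromodomain protein, had 65.3, 61.9 and 48.8 CPM in SCADD livers, against 53.7, 54.6 and 49.1 CPM in WT livers. SCADD replicate 3 lay below all WT libraries and the other two above them (log2 fold change 0.16, SE 0.14, adjusted p = 0.550). Brd3, Yeats2, Yeats4 and Dpf2, a BAF complex subunit with a double PHD finger, had log2 fold changes of -0.17 (Dpf2) to 0.29 (Yeats2), all with overlap. Cdyl, a chromodomain protein with crotonyl-CoA hydratase activity, had 3.14, 2.36 and 2.73 CPM in SCADD livers, against 2.53, 1.97 and 2.18 CPM in WT livers (log2 fold change 0.30, SE 0.22, adjusted p = 0.467). Cdyl2 was not tested, with 13, 7 and 1 counts in SCADD and 7, 7 and 3 counts in WT.

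Levels between genes were compared per length, as RSEM TPM, which is scaled by transcript length and library size. All 6 libraries had at least 1 TPM for 30 of the 41 genes, 5 genes stayed under 1 TPM in every library, and 6 were mixed. Sirt3 stood first in both groups at 84.7 ± 13.04 TPM in SCADD and 92.03 ± 7.50 TPM in WT. Hdac11 followed with 26.6 ± 7.21 TPM in SCADD and 27.6 ± 1.53 TPM in WT. Brd2 had 22.9 ± 7.02 TPM in SCADD and 20.97 ± 2.73 TPM in WT. Kat2b had 20.6 ± 5.98 TPM in SCADD and 20.5 ± 4.15 TPM in WT. Hdac2 had 16.4 ± 1.64 TPM in SCADD and 17.1 ± 0.0874 TPM in WT. Hdac11, Brd2 and Kat2b did not differ beyond their spread within SCADD. The order of these 5 genes was the same in both groups. Kat8, with 8.94 ± 2.65 TPM in SCADD and 9.10 ± 1.13 TPM in WT, ranked 13 of 41 in SCADD and 12 of 41 in WT. The median gene of the set had 3.19 TPM in SCADD and 3.12 TPM in WT, against 3.53 TPM in SCADD and 3.51 TPM in WT for the median tested gene.

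Sirt3 made up 69.8% ± 1.23 of the summed sirtuin TPM in SCADD and 70.1% ± 0.631 in WT. By counts per kilobase of exon its share was 59.0% in SCADD and 57.9% in WT. Hdac11 made up 36.4% ± 5.09 of the zinc-dependent deacetylase TPM in SCADD and 36.1% ± 2.28 in WT. Kat2b led the writers with 22.9% ± 1.25 in SCADD and 23.2% ± 3.49 in WT. Brd2 led the readers with 47.4% ± 4.21 in SCADD and 42.5% ± 2.40 in WT by TPM, whereas by counts per kilobase Yeats4 led with 44.2% in SCADD and 46.8% in WT. Cdyl made up 84.5% ± 10.9 of the sum with Cdyl2 in SCADD and 89.5% ± 4.80 in WT. The leading reader depended on how length was counted. Of the 39 genes outside the Cdyl family, 6 had shares that did not overlap between groups. Shares within a role exist for these genes only, so this count has no share over all genes beside it. By another measure, CPM, 28.0% of all tested genes did not overlap. Kansl2 made up 13.5% ± 1.99 of writer TPM in SCADD and 9.53% ± 1.01 in WT, Msl1 13.8% ± 0.896 in SCADD and 10.5% ± 0.734 in WT, and Msl3 14.2% ± 2.03 in SCADD and 18.4% ± 1.58 in WT. Sirt7 made up 8.02% ± 0.383 of sirtuin TPM in SCADD and 9.22% ± 0.530 in WT. Hdac6 made up 2.73% ± 0.306 of zinc-dependent deacetylase TPM in SCADD and 2.18% ± 0.0610 in WT, and Dpf2 9.27% ± 0.370 of reader TPM in SCADD and 11.5% ± 1.04 in WT. The shares of 1 role sum to a whole and were not tested.

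**Figure D3:**
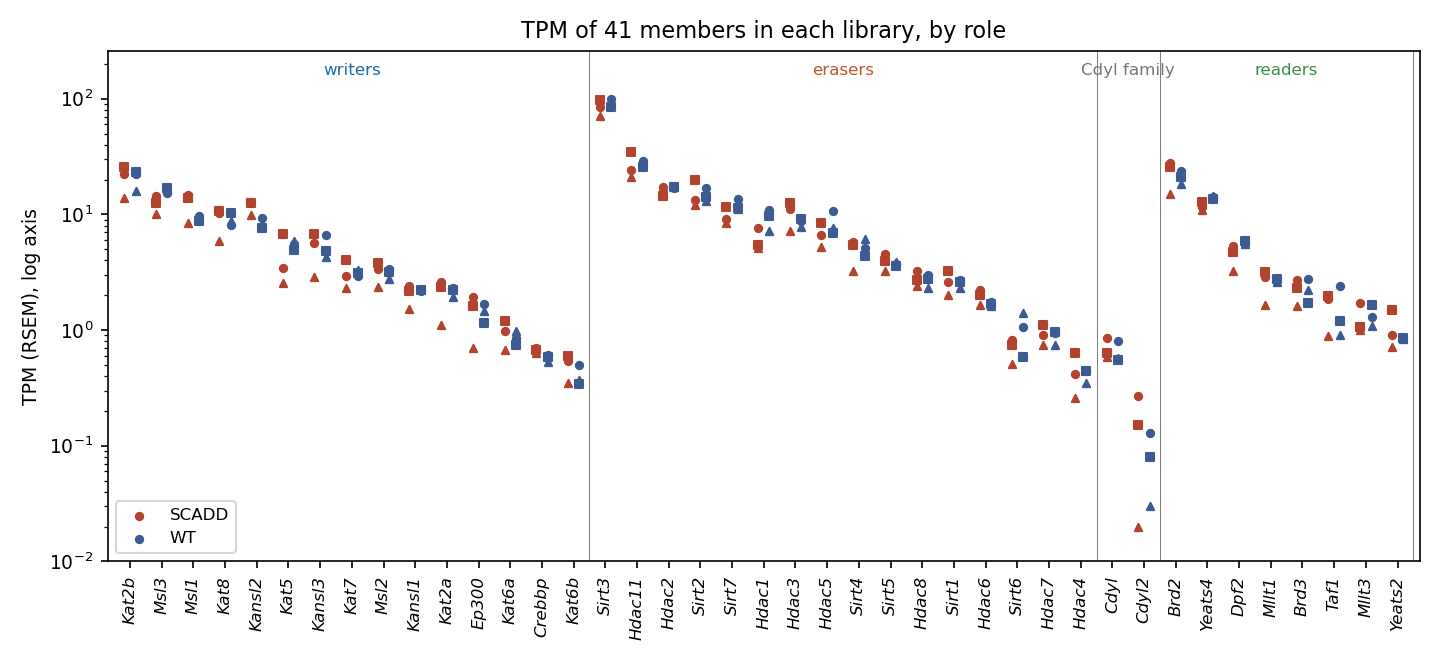
TPM of the 41 genes in each library on a log axis, grouped by role and ordered by level (circles, squares and triangles are replicates 1, 2 and 3). Sirt3 lies highest at 84.7 TPM in SCADD and 92.03 TPM in WT, and Cdyl2 lowest. SCADD replicate 3 has the lowest TPM for most of the 41 genes, and the lowest TMM-scaled CPM for fewer of them.

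RSEM also gives for each gene the mean length of its annotated transcripts weighted by their estimated abundance, which moves with the mix of transcripts. Of the 40 tested genes, 5 had lengths that did not overlap between groups (9.13% of all tested genes did not), and 2 of them also differed by a ratio over 1.1 (3.29% of all tested genes met both conditions). Kat5 transcripts averaged 1437, 1286 and 1393 bases in SCADD livers, against 1490, 1701 and 1450 bases in WT livers, a ratio of 0.887. Ep300 transcripts averaged 6672, 7115 and 7145 bases in SCADD livers, against 5757, 6585 and 5437 bases in WT livers, a ratio of 1.18. Ep300 had 0.700 TPM and 104 counts in SCADD replicate 3, so few reads support that estimate. Dpf2, Hdac5 and Yeats4 had ratios of 1.09, 0.926 and 1.03. Yeats4 was the most even, with 1327, 1327 and 1328 bases in SCADD and 1284, 1291 and 1282 bases in WT. These lengths are model estimates from short reads and were not tested.

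**Figure D4:**
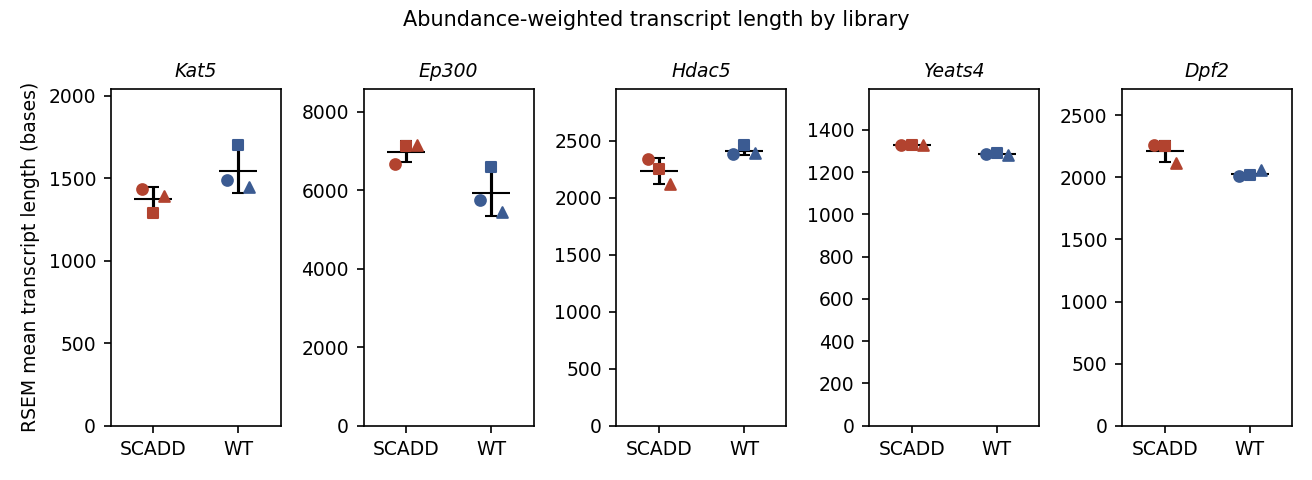
RSEM mean transcript length in bases of the 5 genes whose groups did not overlap, SCADD left of WT, with circles, squares and triangles for replicates 1, 2 and 3 and the mean and SD of 3 animals as bars. Ep300 and Dpf2 are longer in SCADD, Kat5 and Hdac5 shorter, and Yeats4 differs by a ratio of 1.03.

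The spread between libraries was larger in SCADD, for these genes as for all tested genes. The SCADD libraries also had fewer gene counts and more unmapped reads, and the part of this in the spread was not tested. The median coefficient of variation of the 40 genes was 11.1% in SCADD and 8.80% in WT, and it was larger in SCADD for 26 of them (65%). Over all tested genes the medians were 16.8% in SCADD and 12.6% in WT, with 61.4% larger in SCADD. Ep300 (30.8%) and Hdac2 (26.9%) varied most in SCADD. The library farthest from its group median was SCADD replicate 1, 2 or 3 for 8, 14 and 18 genes, and WT replicate 1, 2 or 3 for 17, 9 and 14 genes. By this measure no library was the farthest for more than 18 of the 40 genes.

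Other genes of the same pathways gave 7 differences at the threshold, 6 higher and 1 lower in SCADD. Of all tested genes 7.02% passed it. Among 46 tested subunits of acetyltransferase complexes 1 was higher and 0 lower (2.17%), with a median log2 fold change of 0.04. It was Brpf3, a scaffold of acetyltransferase complexes with Kat7, at 13.4 ± 2.55 CPM in SCADD and 7.64 ± 0.170 CPM in WT (log2 fold change 0.81, SE 0.17, adjusted p = 0.0154). Among 36 tested subunits of deacetylase complexes 2 were higher and 0 lower (5.56%), with a median of 0.09. Both belong to the NuRD complex, which contains Hdac1 and Hdac2. Gatad2a averaged 26.9 ± 2.57 CPM in SCADD and 17.5 ± 3.15 CPM in WT (log2 fold change 0.62, SE 0.15, adjusted p = 0.0374). Chd3, a remodelling ATPase, averaged 31.5 ± 3.00 CPM in SCADD and 21.03 ± 3.64 CPM in WT (log2 fold change 0.58, SE 0.15, adjusted p = 0.0484). Both shares lie under the 7.02% of all tested genes.

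Among 42 further enzymes and readers of the same families 1 was higher and 0 lower (2.38%, against 7.02% of all tested genes). The median log2 fold change was 0.16. In edgeR's test 11 genes had an unadjusted p under 0.05 (26.2%, against 22.7% of all tested genes), and they lay on the higher side. The called gene was Trim24, a bromodomain coregulator, which had 34.5, 35.8 and 17.4 CPM in SCADD livers, against 8.86, 14.3 and 9.01 CPM in WT livers (log2 fold change 1.45, SE 0.30, adjusted p = 0.0234). SCADD replicate 3 lay nearest to WT.

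Among 27 tested genes of acyl-CoA supply and NAD synthesis 2 were higher and 1 lower (11.1%, against 7.02% of all tested genes). The median log2 fold change was 0.10. In edgeR's test 10 had an unadjusted p under 0.05 (37%, against 22.7% of all tested genes), 8 higher and 2 lower. Groups did not overlap in CPM for 13 (48.1%, against 28.0%). The list was chosen with earlier results of these data known, and these shares were not tested. Acss3, a mitochondrial short-chain acyl-CoA synthetase, had 81.3, 63.6 and 69.9 CPM in SCADD livers, against 23.8, 30.4 and 23.6 CPM in WT livers (log2 fold change 1.47, SE 0.15, adjusted p = 0.000357), and it passed in all 17 alternatives. Nmrk1, which phosphorylates nicotinamide riboside, averaged 20.5 ± 4.85 CPM in SCADD and 10.1 ± 1.301 CPM in WT (log2 fold change 1.01, SE 0.19, adjusted p = 0.0105). Qprt, which makes nicotinic acid mononucleotide from quinolinate, fell to 93.8 ± 9.59 CPM in SCADD, against 147 ± 12.1 CPM in WT (log2 fold change -0.64, SE 0.14, adjusted p = 0.0207).

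Of these 7, Acss3 kept its call without any 1 library. Nmrk1 lost it without WT replicate 2 (adjusted p = 0.0612), and Qprt without WT replicate 2 (0.0919) or 3 (0.0956). Brpf3 lost it without SCADD replicate 1 or any WT library (0.0501 to 0.0783), Trim24 without SCADD replicate 1 or 2 or WT replicate 1 or 3 (0.0678 to 0.0968), Gatad2a without SCADD replicate 1 or 2 or WT replicate 2 or 3 (0.0773 to 0.161), and Chd3 without any library except SCADD replicate 3 (0.0807 to 0.172). Those fits had 5 animals.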

How the data were processed

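Polyadenylated RNA of 6 livers was sequenced, 3 SCADD and 3 WT, described in the series as biological replicates. Per the submitters' processing notes reads were handled with STAR 2.7.6a and RSEM 1.3.3 on GRCm38. The annotation release is not given in the sources used here. The authors deposited whole-number read counts per gene (STAR, unstranded and 2 stranded columns) that were not normalised, and RSEM tables of expected counts, TPM scaled to the same total in each library, and mean transcript length in bases. Column 4 of the count tables, with 96.8% to 97.3% of stranded reads, was used. Reads in no gene (1.47% to 2.17%), unmapped and multi-mapped reads stayed out of library sizes and tests. RSEM expected counts were rounded for one alternative.

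Genes were filtered with filterByExpr (at a minimum count of 10). After TMM scaling, edgeR 4.0.16 was used for the test (glmQLFit with robust estimation, glmQLFTest, prior count 0.125) in R 4.3.3, with no term besides group. P-values were two-sided and adjusted by Benjamini-Hochberg over 13498 genes, with a threshold of 0.05. SE is the log2 fold change over the square root of F, and 95% intervals use the t quantile at 10.6 degrees of freedom. P-values weigh the group difference against the spread between these samples, which was estimated for each gene with information from all tested genes. Of 55487 gene IDs, 55141 matched GENCODE M21, which gave symbols and exonic lengths. The gene test was tested on simulated data with 65 changed genes at each size of change. It recovered 13.8% of the 1.5-fold, 56.9% of the 2-fold and 96.9% of the 4-fold changes. Of 118 calls 9 were false. Most changes of 1.5-fold were thus missed at the threshold.

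Per-library values are given for genes with an unadjusted p under 0.05, Kat8, Hdac3 and the gene with the highest TPM of each role, and for others chosen after their values were seen. Genes of wider lists are named where called. The members and lists were chosen with earlier results of these data known. Replicates differed by far more than sampling noise (chi-square per degree of freedom 32.8 to 121), and their log CPM values correlated at 0.974 to 0.989 in the same group and at 0.956 to 0.965 across groups. The alternatives comprised upper-quartile and RLE scaling, a filter of 1 CPM in 3 or more libraries or none, limma-voom (limma 3.58.1), DESeq2 1.42.0, no robust estimation, unstranded counts, RSEM expected counts, a replicate block, a test against a 1.5-fold change and leaving out each library.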

Additional observations from a re-analysis of the deposited data

How the results depend on the processing

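Over 17 alternatives the 40 genes gave 680 log2 fold changes. Of these, 632 kept their direction and side of the threshold, 3 newly passed it (Kansl2 in 2, Hdac1 in 1) and 45 changed sign, in 14 genes and at a size of at most 0.204. The number of the 40 genes past the threshold was 1 higher with RSEM expected counts (Kansl2) and 1 lower without a filter (Hdac1), against 0 and 0. The largest shift of the median of all genes by scaling was -0.0481, with upper-quartile factors.

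With upper-quartile scaling the sign changed for Kat8 (-0.025), Kat7 (-0.031), Kat2b (-0.0028), Hdac2 (-0.029), Hdac7 (-0.015), Hdac11 (-0.043), Sirt2 (-0.035) and Brd3 (-0.011). It also changed with limma-voom for Hdac2 (-0.018) and Hdac11 (-0.0030), with RSEM expected counts for Hdac7 (-0.0058), Hdac11 (-0.014) and Sirt1 (0.024), and for Hdac11 without a filter (-0.0016) and with the 1 CPM filter (-0.00076). With the replicate block it changed for Hdac2 (-0.012) and Hdac11 (-0.0047). The causes were not tested.

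Leaving out 1 library at a time, the 40 genes had 0 to 1 higher, and the intervals within 1.5-fold numbered 18 to 24 (24 with all libraries, 21 with the replicate block). Log2 fold changes ranged from -0.11 to 0.11 for Kat8, -0.080 to 0.074 for Kat7, -0.19 to 0.096 for Kat2a, -0.076 to 0.15 for Kat2b, -6.8e-05 to 0.45 for Ep300, -0.13 to 0.24 for Kansl3, -0.20 to 0.17 for Hdac2, -0.017 to 0.15 for Hdac8, -0.067 to 0.16 for Hdac7, -0.13 to 0.088 for Hdac11, -0.14 to 0.013 for Sirt1, -0.10 to 0.077 for Sirt2, -0.11 to 0.14 for Brd3 and -0.16 to 0.030 for Mllt1. Subunits of acetyltransferase complexes had 0 to 2 higher and 0 to 1 lower, those of deacetylase complexes 0 to 3 higher, the other families 0 to 6 higher, acyl-CoA and NAD genes 1 to 4 higher and 0 to 1 lower, and all genes 240 to 909 higher and 155 to 681 lower. The counts of all genes moved by over 1.5 times without SCADD replicate 1 (324 higher and 193 lower), SCADD replicate 3 (909 and 681), WT replicate 2 (240 and 155) and WT replicate 3 (283 and 177).

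In the test against a 1.5-fold change, acetyltransferase complex subunits, deacetylase complex subunits and the other families had 0 higher, acyl-CoA and NAD genes 1 higher and 0 lower, and all genes 143 higher and 81 lower. Without a filter all genes had 950 higher and 752 lower, acetyltransferase complex subunits 1 lower, the other families 2 higher and acyl-CoA and NAD genes 4 higher. With DESeq2 acetyltransferase complex subunits had 1 lower and acyl-CoA and NAD genes 4 higher, and acyl-CoA and NAD genes also had 4 higher with the replicate block. Deacetylase complex subunits had 0 higher with upper-quartile scaling and 1 with the 1 CPM filter, limma-voom, no robust estimation, unstranded counts or RSEM expected counts. Of the 2 genes with a transcript length ratio over 1.1, 1 had at least 1 TPM in every library. Same-numbered SCADD and WT libraries had deviation correlations of 0.0606, 0.0372 and 0.107. Whether a replicate number marks a shared litter, day or batch is not stated, and these correlations cannot decide it. The replicate block called 0 of the 40 genes.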

Other observations

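Reads on the strand opposite to the gene made up under 5% of stranded reads in every library for 36 of the 40 tested genes. Besides Kat5, the exceptions were Hdac7 (18.2% to 29.6% in SCADD and 21.8% to 32.1% in WT), Dpf2 (8.81% to 18.1% in SCADD and 6.80% to 11.2% in WT) and Kat8. Hdac7 overlaps exons of Slc48a1, Dpf2 those of an antisense gene, and Kat8 those of Prss8. For Kat8 the share was 1.07%, 0.288% and 7.66% in SCADD, against 3.17%, 0.525% and 0.481% in WT, with the high value in SCADD replicate 3. The stranded counts used above leave these reads out.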
